A study of Homo sapiens with 6 samples.

Results

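The genes described here are 10 genes that code for the enzymes making and breaking down glycogen, and for a pair of proteins that regulate them: PGM1, PGM2, UGP2, GYS1, GBE1, PYGL, PYGB, PYGM, PPP1R3B and PPP1R3C. They were chosen by name from the pathway, among the 21776 genes of the count table, and all 10 have a row in it. RNA sequencing compared SCC25 cells, an established human cell line derived from a squamous cell carcinoma of the tongue, after 12 h in hypoxia (1% O2) and after 12 h in normoxia (humidified air with CO2), with 3 libraries in each condition. Both conditions were grown in the same medium with serum, and no other treatment or genetic change separates them. The labels name SCC25, whereas a legend in the study names SCC9, a related oral line, and the labels do not state whether the 3 libraries of a condition came from separate cultures. The p-values therefore measure the spread between these libraries, which may be technical.

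Glycogen is the branched glucose polymer in which cells store glucose. Phosphoglucomutase turns glucose 6-phosphate into glucose 1-phosphate, UDP-glucose pyrophosphorylase activates it to UDP-glucose, glycogen synthase adds it to a growing chain, and the branching enzyme introduces branches. Glycogen phosphorylase releases glucose 1-phosphate again, and regulatory subunits of protein phosphatase 1 hold that phosphatase on the glycogen particle, where it activates the synthase and switches the phosphorylase off. Glycogen storage under low oxygen is known from several cell types in culture.

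The total counts were 30186813, 36076088 and 32272716 reads in hypoxia replicates 1 to 3, and 37278703, 29637189 and 29981208 reads in normoxia replicates 1 to 3. A count of 3, the floor used here for a detectable level, corresponds to 0.0807 to 0.0983 CPM in the hypoxia libraries and 0.0806 to 0.105 CPM in the normoxia libraries. CPM are counts scaled to a common library total, here after adjusting the totals by TMM, the trimmed mean of M-values. Of 15 genes of the hypoxia response, 15 were higher under hypoxia, where 39.2% of all tested genes were called higher. This list was chosen with earlier results of these data known, so it is no independent check of the labels. Among the 15, CA9, a cell surface carbonic anhydrase, had 277 ± 15.4 CPM under hypoxia and 42.4 ± 22.03 CPM under normoxia (mean ± SD, n = 3 each, as in all values of this form). Normoxia replicate 3 stood apart from the other normoxia libraries in these genes: it had the highest normoxia level of 13 of the 15, and its CA9 level was 67.7 CPM, against 32.2 and 27.3 CPM in normoxia replicates 1 and 2. It also had the highest normoxia level of 5 of the 7 glycogen genes that were higher under hypoxia, and the changes are therefore also given without it.

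Epithelial markers were present, including KRT5 with 111 ± 5.49 CPM under hypoxia and 126 ± 9.90 CPM under normoxia, EPCAM, CDH1 and TP63. Several markers of the list moved: KRT6A, a keratin of activated squamous epithelium, fell from 16.5 ± 3.86 to 0.951 ± 0.491 CPM, SFN and EPCAM also fell, whereas KRT17, DSG3, CDH1 and ITGB4 rose. KRT14, a keratin of basal squamous cells, was absent, with no more than 1 count in any library. The 10 epithelial markers summed to between 600.6 and 618 FPKM (counts divided by gene length and library total) under hypoxia and between 507 and 531 FPKM under normoxia. Since glycogen isoenzymes are named after muscle, liver and brain, markers of these tissues were read as well. Of 9 striated muscle markers 5 were listed, and their summed level was 10.99 to 13.7 FPKM under hypoxia and 0.219 to 0.361 FPKM under normoxia. Under hypoxia most of it was MB, myoglobin, with 18.8 ± 1.96 CPM against 0.227 ± 0.0362 CPM under normoxia. TNNT3, a troponin of fast muscle, also rose, whereas CKM, MYH2, MYH7 and MYOG were not listed and MYH1, ACTA1 and DES stayed below 0.2 CPM in all 6 libraries. Of 6 liver markers 5 were listed, and SERPINA1 was by far the most abundant, between 80.4 and 97.9 FPKM over all libraries, while ALB had at most 0.054 CPM. MBP was the most abundant brain marker with at most 3.42 FPKM, while GFAP had at most 0.035 CPM. CD68 carried the immune list with at most 19.95 FPKM, and PTPRC, the pan-leukocyte marker, had at most 0.062 CPM. The fibroblast list summed to 2.87 to 3.82 FPKM under hypoxia and 0.479 to 0.895 FPKM under normoxia, led by COL1A1. The endothelial list, led by CDH5, was low but also rose, with 0.251 to 0.317 FPKM under hypoxia and 0.0659 to 0.178 FPKM under normoxia. The part of these markers in the glycogen gene results was not tested.

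Sequences just upstream of the gene starts are shown for genes that were higher and for one that was lower under hypoxia. RefSeq promoter windows of the GRCh38.p14 build were at hand for 8 of the 10 genes, and PPP1R3B and PYGM had no entry. Only the 250 bases before the start were read, on both strands, for ACGTG and GCGTG, which are the letter forms of the core of the hypoxia response element. Of the 11 windows of these 8 genes, since PGM1 and UGP2 have several starts, 8 held either form. Among all 35116 promoter windows of this length 43.2% held either form (18.5% ACGTG and 32.2% GCGTG), and among the 16083 windows of tested genes the share was 54.3%. A match describes letters and is not evidence of binding.

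The whole window is shown for PPP1R3C, which had the largest increase, and for PYGB, the phosphorylase gene that fell. Capitals mark the motif letters on either strand. PPP1R3C lies on the minus strand, and its window is chr10:91633072-91633321 (GRCh38.p14). The window of PYGB, on the plus strand, is chr20:25247835-25248084.
PPP1R3C: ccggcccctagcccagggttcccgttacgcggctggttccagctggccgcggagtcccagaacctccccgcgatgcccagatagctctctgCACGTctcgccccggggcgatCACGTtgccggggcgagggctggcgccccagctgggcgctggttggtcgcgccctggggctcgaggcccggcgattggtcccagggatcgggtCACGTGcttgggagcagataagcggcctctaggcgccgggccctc
PYGB: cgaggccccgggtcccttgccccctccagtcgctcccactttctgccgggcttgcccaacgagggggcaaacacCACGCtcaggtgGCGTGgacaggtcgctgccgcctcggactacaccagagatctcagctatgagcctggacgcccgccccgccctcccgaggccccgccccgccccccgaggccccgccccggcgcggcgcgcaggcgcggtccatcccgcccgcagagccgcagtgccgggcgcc
The PPP1R3C window held 4 copies of ACGTG, beginning 159, 138, 45 and 44 bases before the start, of which the last 2 are the opposite strands of one CACGTG. The PYGB window held 2 copies of GCGTG, at 176 and 164 bases. So the gene that fell also carried motif letters, as did PGM2, which had a slightly lower level under hypoxia. PGM2 had 4 copies, 3 of ACGTG and 1 of GCGTG, and 2 of the former are the opposite strands of a single CACGTG. The PYGL window held neither form.

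For GYS1 and GBE1, short stretches around the motifs are shown, since exons annotated in GENCODE v29 cover 113 and 250 bases of their windows, against 0 in that of PPP1R3C and 16 in that of PYGB. Both genes lie on the minus strand, and capitals again mark the motif letters. The GYS1 stretch is chr19:48993389-48993418, and the GBE1 stretches are chr3:81761785-81761813 and chr3:81761741-81761769.
GYS1: aCACGCggaaatccccgcccccggGCGTGg
GBE1, first stretch: caggtgccagccGCGTGagtgggcggaga
GBE1, second stretch: tacccgctccggACGTGcgtcccggcatc
GYS1 held GCGTG on each strand, at 108 and 85 bases before the start, and GBE1 held GCGTG at 156 and ACGTG at 112 bases.

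Under hypoxia, the glycogen genes did not move as one. The mRNAs of glycogen synthase, the branching enzyme, UDP-glucose pyrophosphorylase and the main phosphoglucomutase rose between 1.55-fold and 2.08-fold, and the mRNAs of both phosphatase targeting subunits rose more than any enzyme of the pathway, PPP1R3B by 10.3-fold and PPP1R3C by 27.7-fold. The size of the PPP1R3C change rests on 14, 7 and 2 counts under normoxia, and its log2-fold change ran from 4.37 to 5.39 as single libraries were left out. The phosphorylase genes parted: PYGB fell 1.72-fold, while PYGL was 1.09-fold higher, a call that was lost in 6 of 11 alternatives. PYGM, the muscle phosphorylase, was close to undetected in either condition.

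The comparison used edgeR's quasi-likelihood test on counts, run over the 14255 genes of the table that passed a low-count filter, and p-values were adjusted over all of these by the Benjamini-Hochberg method. Of the 10 genes, 9 passed the filter, and 9 of these had an adjusted p under 0.05, against 77.8% of all tested genes. PPP1R3C passed the filter through its hypoxia libraries alone, so the counts that follow, which include it, are a description. By direction, 7 were higher under hypoxia, where 39.2% of all tested genes were called higher, and 2 were lower, where 38.5% were called lower. With a log2-fold change of at least 1 in size as well, 3 genes remained (PPP1R3C, PPP1R3B and GBE1), and 30.4% of all tested genes met that rule. The CPM of the 2 conditions did not overlap for 9 of the 9 genes, nor for 80.5% of all tested genes. Most of the transcriptome moved between these conditions, so a call on its own sets a glycogen gene apart from few others. The median log2-fold change was 0.76 over the 9 glycogen genes and 0.02 over all tested genes, and the median size of the change was 0.78 and 0.63.

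**Figure D1:**
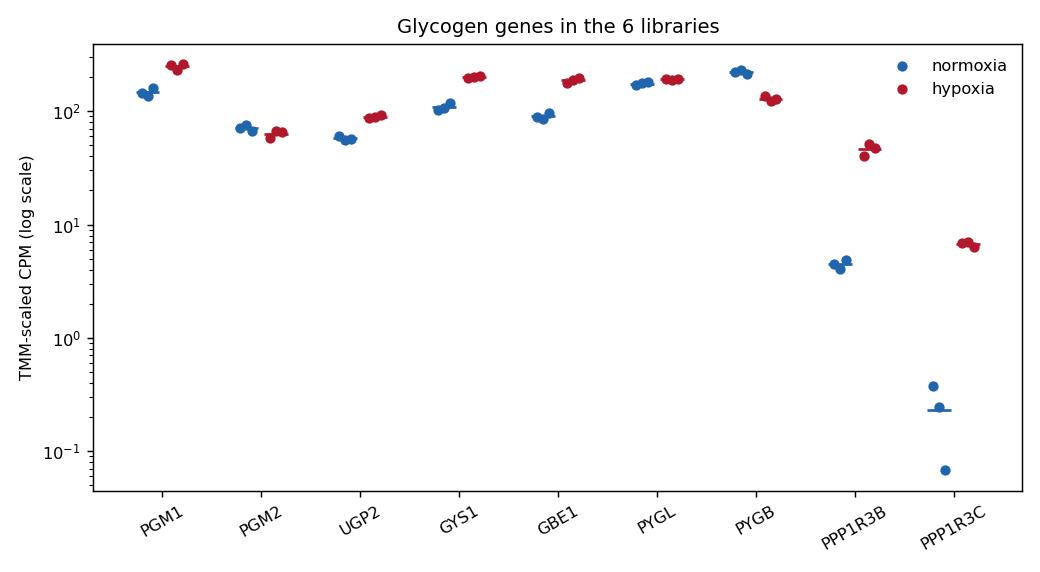
TMM-scaled CPM (log axis) of 9 glycogen genes in the 3 normoxia (blue) and 3 hypoxia (red) libraries, with a short line at each mean; PYGM, at or near 0, is not drawn. The conditions are far apart for PPP1R3B and PPP1R3C, and lie close together for PGM2 and PYGL.

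The entry to glycogen is the exchange of glucose 6-phosphate and glucose 1-phosphate. PGM1 codes for the main phosphoglucomutase. Its level was 257, 231 and 259 CPM in hypoxia replicates 1 to 3 and 144, 136 and 160.0 CPM in normoxia replicates 1 to 3. All hypoxia libraries were above all normoxia libraries, and the log2-fold change was 0.76 (SE 0.06, adjusted p = 7.44e-09, edgeR), or 0.81 without normoxia replicate 3. In the GENCODE v29 annotation, PGM1 shares 197 exonic bases with ITGB3BP on the opposite strand. ITGB3BP had a mean of 13.6 CPM under hypoxia and 15.5 CPM under normoxia, both far below PGM1, and whether the counting used the strand is not given in the sources used here.

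PGM2 codes for a related enzyme that acts mainly on pentose phosphates. It had 57.8, 66.8 and 65.3 CPM under hypoxia and 70.9, 75.1 and 67.3 CPM under normoxia. The highest hypoxia library lay just under the lowest normoxia library, and the log2-fold change was -0.17 (SE 0.07, adjusted p = 0.0276). That call was lost with a filter of at least 10 counts in every library (log2-fold change -0.09, adjusted p = 0.218), and without hypoxia replicate 1 (-0.11, adjusted p = 0.136) or normoxia replicate 2 (-0.14, adjusted p = 0.0937). PGM2 was also not called from the deposited FPKM (log2(FPKM + 1) difference -0.12, limma, adjusted p = 0.116).

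PGM1 made up more of the summed PGM1 and PGM2 mRNA in every hypoxia library than in any normoxia library. Other phosphoglucomutase genes, PGM2L1 and PGM3, were not part of this sum. On the FPKM scale, which divides by gene length and allows genes to be compared, PGM1 made up 80.5 ± 1.98% of the summed PGM1 and PGM2 level under hypoxia and 68.3 ± 2.92% under normoxia. The sum itself was 97.6 ± 3.11 FPKM under hypoxia and 65.6 ± 3.22 FPKM under normoxia. The log2 ratio of PGM1 to PGM2 counts was 0.93 higher under hypoxia, without overlap, at an exact permutation p of 0.1 (two-sided), the smallest that 3 against 3 libraries can give. In the exact tests of ratios below the same limit applies.

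UGP2 codes for UDP-glucose pyrophosphorylase, which makes the activated sugar that the synthase uses. It had 86.9, 89.0 and 92.2 CPM under hypoxia and 60.9, 55.6 and 56.7 CPM under normoxia. The libraries of a condition were close to each other and the conditions were well apart. The log2-fold change was 0.63 (SE 0.06, adjusted p = 1.96e-08).

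GYS1 codes for the glycogen synthase used by tissues other than the liver. Its level was 197, 201 and 203 CPM under hypoxia and 102, 107 and 118 CPM under normoxia. The hypoxia libraries were nearly equal, and normoxia replicate 3 was the highest of its condition. The log2-fold change was 0.88 (SE 0.06, adjusted p = 3.33e-10), and 0.93 without that library. GYS2, the liver synthase, was not listed in the count table.

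GBE1, the glycogen branching enzyme, had the largest change among the enzymes. It had 177, 188 and 198 CPM under hypoxia and 89.2, 85.8 and 96.2 CPM under normoxia, so that the lowest hypoxia library was well above the highest normoxia library. The log2-fold change was 1.06 (SE 0.06, adjusted p = 3.71e-11). The log2 ratio of GBE1 to GYS1 counts was 0.17 higher under hypoxia, without overlap between conditions (exact permutation p = 0.1, two-sided).

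**Figure D2:**
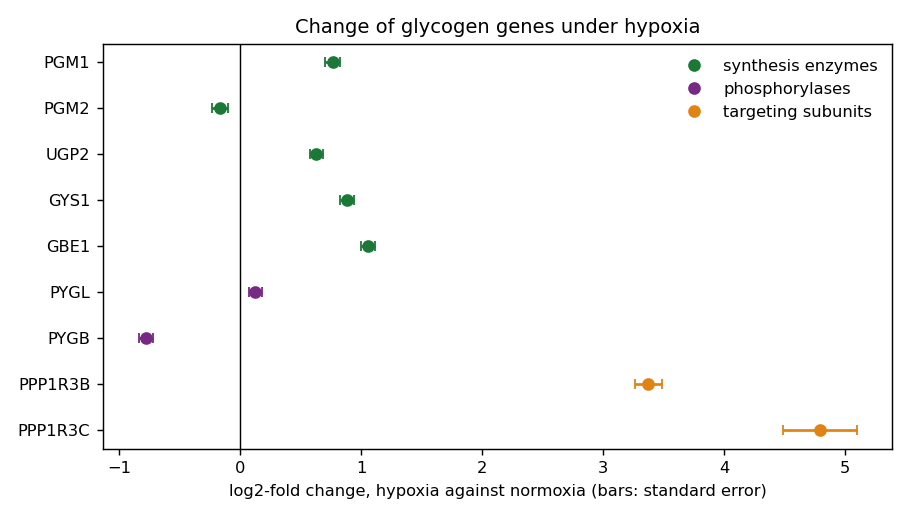
Log2-fold change under hypoxia against normoxia (x axis, points) with its standard error (bars) for 9 glycogen genes, coloured by role. Genes drawn as synthesis enzymes, PGM2 (-0.17) included, lie between -0.17 and 1.06, the phosphorylases at 0.13 and -0.78, and the targeting subunits at 3.37 and 4.79.

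Breakdown is carried by 3 phosphorylase isoenzymes, named after liver (PYGL), brain (PYGB) and muscle (PYGM), each found in other tissues too. PYGB had 137, 123 and 127 CPM under hypoxia and 222, 230.4 and 213 CPM under normoxia. Each hypoxia library was far below each normoxia library, and PYGB fell by 0.78 on the log2 scale (SE 0.06, adjusted p = 9.07e-10), or by 0.83 without normoxia replicate 3. It was the most clearly lowered of the 10 genes.

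PYGL had 194, 188 and 192 CPM under hypoxia and 171, 176 and 179.6 CPM under normoxia. The conditions did not overlap, although the gap was small. The log2-fold change was 0.13 (SE 0.05, adjusted p = 0.0305). Its call was lost when any one of 4 libraries was left out: hypoxia replicate 1 (adjusted p = 0.102), hypoxia replicate 3 (adjusted p = 0.0943), normoxia replicate 1 (adjusted p = 0.182) or normoxia replicate 2 (adjusted p = 0.0718). It was also lost when low genes were not filtered (log2-fold change 0.08, adjusted p = 0.219). From the deposited FPKM, PYGL was called higher (log2(FPKM + 1) difference 0.17, limma, adjusted p = 0.00249). PYGL shares 180 exonic bases with AL358334.3, an antisense gene that the count table does not list.

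PYGM was counted 1, 0 and 6 times under hypoxia and 1, 2 and 1 times under normoxia. Only hypoxia replicate 3 was above the floor of 3 counts, and the gene was not tested.

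The shares of the phosphorylase genes in their summed mRNA did not overlap between conditions. PYGL made up 68.6 ± 0.891% of the summed phosphorylase FPKM under hypoxia and 53.8 ± 1.37% under normoxia, and PYGB made up 31.4 ± 0.897% and 46.2 ± 1.37%. The summed level was 101 ± 2.31 FPKM under hypoxia and 115 ± 0.201 FPKM under normoxia. The log2 ratio of PYGL to PYGB counts was 0.91 higher under hypoxia, and no hypoxia library overlapped a normoxia library (exact permutation p = 0.1, two-sided). Set against the synthase, the log2 ratio of GYS1 to PYGL counts was 0.76 higher under hypoxia, again without overlap (exact permutation p = 0.1, two-sided). In cultures like these, a lower level can reflect fewer cells that express a gene or less RNA in each cell, and these cannot be told apart.

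**Figure D3:**
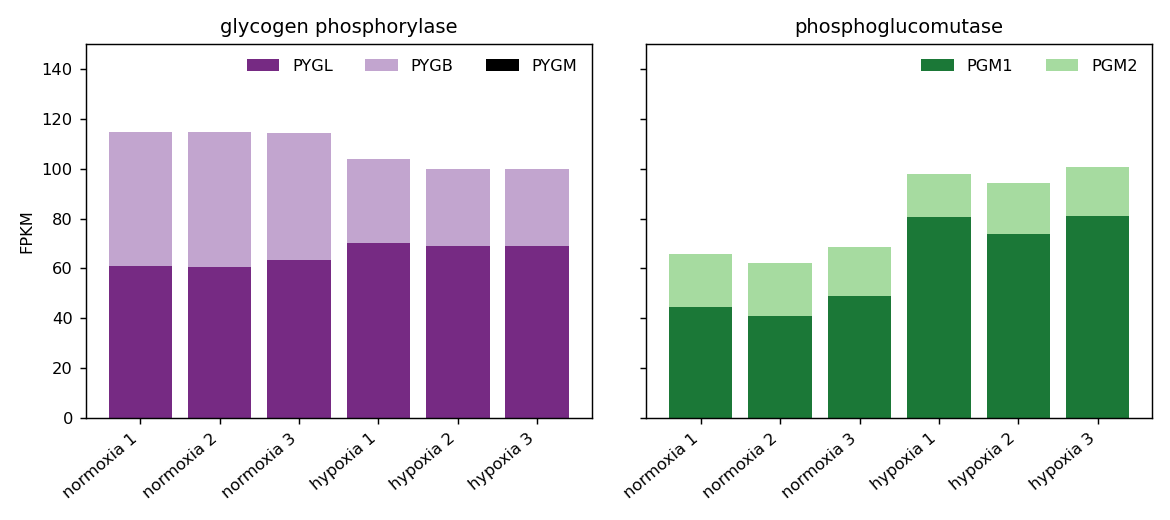
Stacked FPKM of the phosphorylase genes (left) and the phosphoglucomutase genes PGM1 and PGM2 (right) in each library, from 0. The PYGB segment is smaller in the hypoxia libraries (31.4% of the sum against 46.2%), and the PGM1 segment is larger (80.5% against 68.3%); PYGM is too low to be visible.

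The targeting subunits bring protein phosphatase 1 to glycogen. PPP1R3B, known from liver, had 40.1, 51.5 and 47.3 CPM under hypoxia and 4.49, 4.05 and 4.87 CPM under normoxia. Every hypoxia library was several times above every normoxia library, and hypoxia replicate 1 was the lowest of its condition. The log2-fold change was 3.37 (SE 0.11, adjusted p = 6.06e-14), rank 388 of the 14255 tested genes from the largest increase down. PPP1R3B shares 245 exonic bases with the antisense gene AC022784.5, which the count table does not list.

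PPP1R3C, also called protein targeting to glycogen, was counted 210, 261 and 204 times under hypoxia and 14, 7 and 2 times under normoxia. Scaled to CPM, the hypoxia libraries had 6.88, 7.02 and 6.29, and the normoxia libraries 0.376, 0.245 and 0.0676. The hypoxia libraries were close to each other, while the normoxia libraries spread widely, with replicate 3 under the floor of 3 counts. The log2-fold change was 4.79 (SE 0.30, adjusted p = 1.52e-10), rank 111 of 14255. Since the gene passed the filter through its hypoxia libraries alone, the fit with no such filter is given as well, and there the log2-fold change was 4.75 and the gene was called too. It was 5.39 without normoxia replicate 1 and 4.37 without normoxia replicate 3, so that the size, but not the direction, depends on those few counts. The log2 ratio of PPP1R3C to PPP1R3B counts was 1.82 higher under hypoxia (exact permutation p = 0.1, two-sided, no overlap), and 1.04 higher without normoxia replicate 3.

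**Figure D4:**
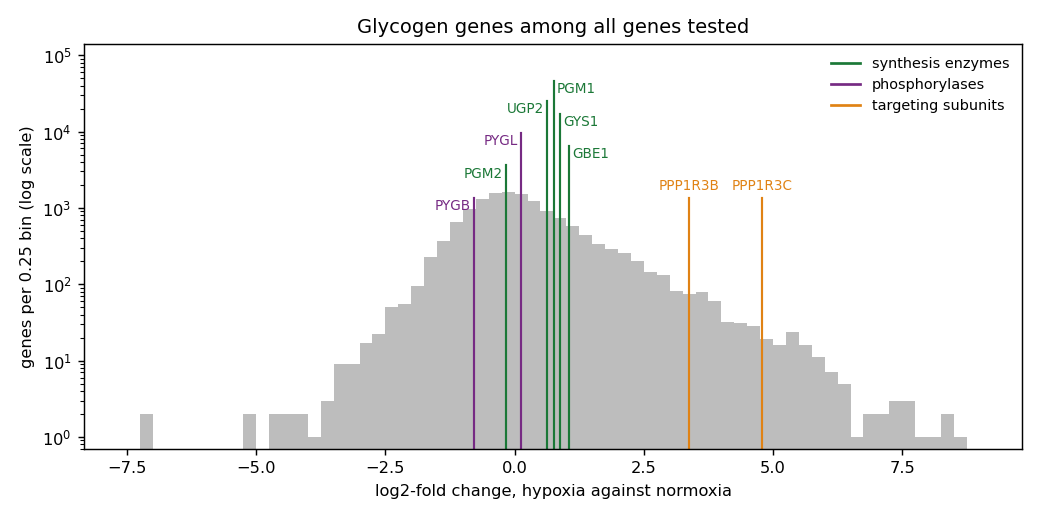
Distribution of log2-fold changes over the 14255 tested genes (grey; number of genes per bin on a log axis), with lines at 9 glycogen genes coloured by role. The enzymes lie within the bulk of the distribution, while PPP1R3B (3.37) and PPP1R3C (4.79) lie in its upper tail.

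The remaining ranks from the largest increase down were 2724 for GBE1, 3219 for GYS1, 3561 for PGM1, 4019 for UGP2, 6485 for PYGL, 8359 for PGM2 and 11914 for PYGB. Without normoxia replicate 3, the log2-fold changes not given above were 1.08 for GBE1, 0.60 for UGP2, -0.22 for PGM2, 0.13 for PYGL and 3.42 for PPP1R3B, and all 9 genes were called. From the deposited FPKM, tested on log2(FPKM + 1) with limma, 8 of the 9 glycogen genes were called, against 80.9% of the 10976 genes whose mean FPKM reached 1. The 1 added to each value shrank the changes of the low genes on this scale, to 2.37 for PPP1R3B and 1.76 for PPP1R3C.

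Per length, the order of the levels also differed between conditions. Under hypoxia PGM1 was highest with 78.5 ± 4.004 FPKM, followed by PYGL with 69.4 ± 0.683, GBE1 with 64.9 ± 3.45 and GYS1 with 57.0 ± 1.21 FPKM. UGP2 (32.1 ± 0.901 FPKM) and PYGB (31.8 ± 1.65 FPKM) overlapped, and PGM2 (19.0 ± 1.57), PPP1R3B (8.17 ± 1.09), PPP1R3C (2.69 ± 0.184) and PYGM (0.0202 ± 0.0274 FPKM) followed. Under normoxia both phosphorylases stood at the top, PYGL with 61.6 ± 1.47 and PYGB with 52.9 ± 1.66 FPKM. PGM1 came next with 44.9 ± 4.11 FPKM, GBE1 (30.2 ± 2.05) and GYS1 (30.03 ± 2.36 FPKM) overlapped, and so did PGM2 (20.7 ± 0.921) and UGP2 (20.1 ± 1.29 FPKM). PPP1R3B had 0.764 ± 0.0781, PPP1R3C 0.0890 ± 0.0609 and PYGM 0.0118 ± 0.00604 FPKM under normoxia. Neighbours not called overlapping were apart in all 3 libraries of the condition, and these orders were read without a test.

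The genes around these enzymes moved in both directions. Of 37 other genes of glycogen and glucose phosphate metabolism, 33 were listed and 31 passed the filter; 15 were higher under hypoxia, 12 were lower and 4 (PPP1R3D, NHLRC1, GALK1 and UGGT1) were not called. Their 87.1% of calls compares with the 77.8% of all tested genes. Of the 31 tested genes, 5 were called with a log2-fold change of at least 1 in size, a smaller share than the 30.4% of all tested genes. Their median log2-fold change was -0.09, against 0.76 for the 9 glycogen genes above. PHKG1, counted among the higher genes and among the 5, passed the filter through its hypoxia libraries alone, and NHLRC1 through its normoxia libraries alone. PPP1R3C, among the 9, also passed through hypoxia alone, so these counts and medians are a description.

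Among 7 tested genes of protein phosphatase 1 and its other targeting subunits, 4 rose and 2 fell. PPP1R3G and PPP1R3E, further glycogen targeting subunits, rose furthest. PPP1R3G was counted 315, 366 and 385 times under hypoxia and 43, 29 and 53 times under normoxia (log2-fold change 3.02, SE 0.19). PPP1R3E was counted 469, 660 and 557 times under hypoxia and 100, 87 and 108 times under normoxia (log2-fold change 2.43, SE 0.13). Both had hypoxia libraries well above normoxia libraries. PPP1R3F rose less (0.35), PPP1R3D was not called (-0.19), and PPP1R3A was not listed, so that with PPP1R3B and PPP1R3C 5 of 6 tested targeting subunits rose, where 39.2% of all tested genes were called higher. PPP1R3C, counted among them, passed the filter through its hypoxia libraries alone. Of the catalytic subunits of the phosphatase, PPP1CB rose (log2-fold change 0.57), and PPP1CA and PPP1CC fell (-0.31 and -0.30).

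GAA and STBD1, genes of lysosomal glycogen breakdown and of glycogen binding, rose, and GYG1 fell. GAA, the lysosomal acid alpha-glucosidase, had a log2-fold change of 0.73 (SE 0.05, adjusted p = 1.45e-09). STBD1, which binds glycogen and links it to membranes, was counted 90, 102 and 59 times under hypoxia and 38, 24 and 30 times under normoxia (log2-fold change 1.38, SE 0.28). GYG1, the glycogenin protein that primes a new glycogen chain, fell by 0.81 on the log2 scale (SE 0.08, adjusted p = 2.80e-08), from 45.5 ± 2.63 to 26.0 ± 2.15 CPM. GYG2 had too few counts to be tested.

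Phosphorylase kinase activates the phosphorylases. Of its 5 subunit genes 3 rose and 2 fell, beside 39.2% and 38.5% of all tested genes. PHKB, a regulatory subunit, had a log2-fold change of 0.27 (SE 0.06, adjusted p = 0.000405). PHKG1, a catalytic subunit, had the largest of these changes, 1.88 (SE 0.43), on low counts of 37, 56 and 21 under hypoxia and 13, 9 and 7 under normoxia, and passed the filter through its hypoxia libraries alone. Of 6 genes for glycogen quality, synthase kinases and the glycogen-binding AMPK beta subunits, 1 rose and 4 fell, beside the same shares of all tested genes. EPM2A, laforin, which removes phosphate from glycogen, was counted 47, 50 and 52 times under hypoxia and 141, 119 and 100 times under normoxia (log2-fold change -1.34, SE 0.22), without overlap. GSK3B, a kinase of glycogen synthase, had a log2-fold change of -0.15 (adjusted p = 0.0165), a call lost with at least 10 counts in every library (adjusted p = 0.219) and without hypoxia replicate 3 (adjusted p = 0.0548). It was also not called from the deposited FPKM (log2(FPKM + 1) difference of GSK3B -0.09, limma, adjusted p = 0.115). The related kinase gene GSK3A, 1 of the 4 that fell, had a log2-fold change of -0.75 (SE 0.06, adjusted p = 5.75e-09, edgeR). Its level was 60.4 ± 2.20 CPM under hypoxia and 102 ± 7.79 CPM under normoxia.

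**Figure D5:**
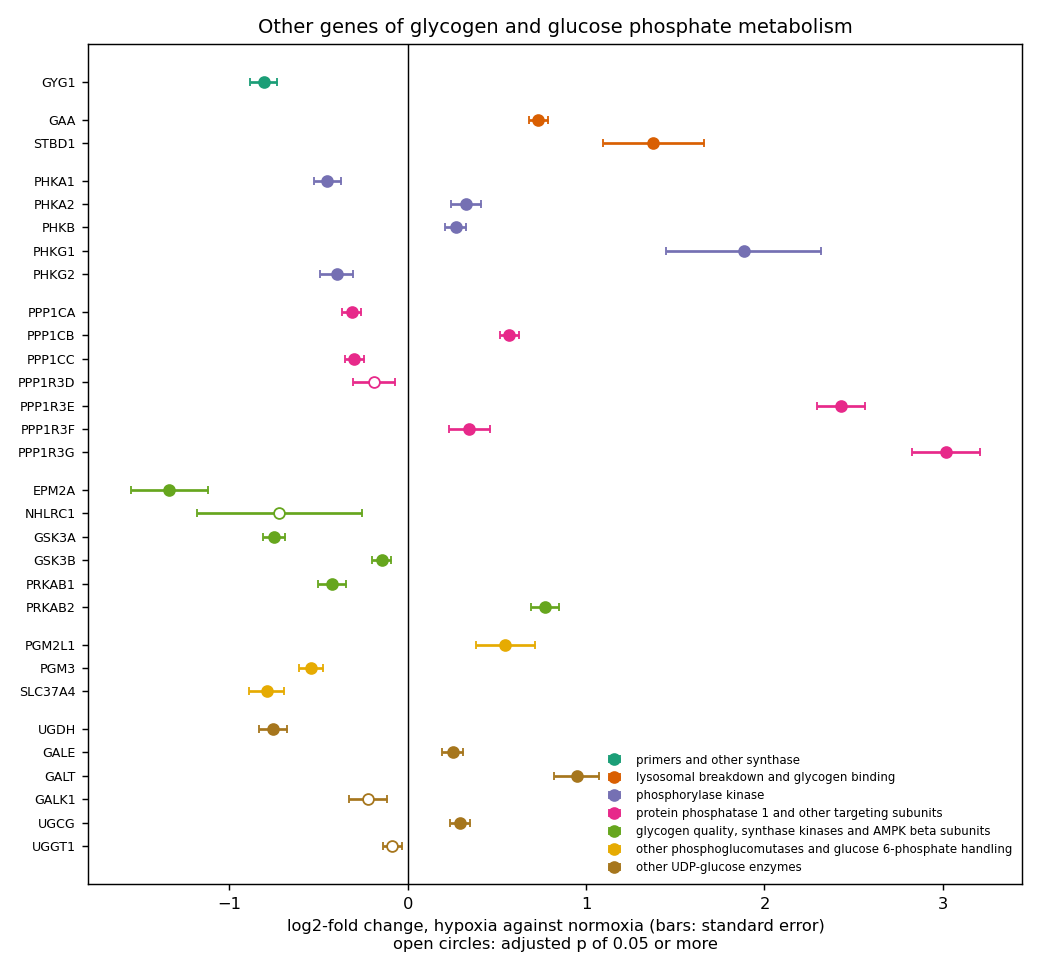
Log2-fold change with its standard error for tested other genes, grouped by list; filled circles passed an adjusted p of 0.05 and open circles did not. PPP1R3G (3.02) and PPP1R3E (2.43) lie farthest to the right and EPM2A (-1.34) farthest to the left.

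Of 3 tested genes for other phosphoglucomutases and glucose 6-phosphate handling, 1 rose and 2 fell, and of 6 genes for other enzymes that use or make UDP-glucose 3 rose and 1 fell. The deposited table also annotates pathways, a grouping read only after the files had been seen. Of the 25 genes it places in the KEGG pathway of starch and sucrose metabolism, which holds 8 of the 10 glycogen genes, 16 passed the filter, 11 were higher and 4 were lower, and these include glycogen genes already described. In its GO terms, 11 of 18 tested genes of glycogen biosynthesis were higher and 6 lower, 4 of 8 tested genes of glycogen catabolism were higher and 3 lower, and 10 of 22 tested genes of glycogen metabolism were higher and 9 lower. Over all tested genes, 39.2% were higher and 38.5% lower.

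The genes whose levels over the 6 libraries lay closest to those of a glycogen gene were found by the Euclidean distance of log2 CPM from the normoxia mean. For GYS1 they were CERCAM, VAT1 and TPBG (distances 0.0675 to 0.0713). For GBE1 they were OPTN, ASS1 and SPG11 (0.0804 to 0.0964), and for PYGL RAP1A, MAPK13 and TMBIM6 (0.0260 to 0.0465). For PPP1R3C, KISS1R, LINC01559 and LOC107984140 came nearest, at distances of 0.928 to 1.13. Their mean normoxia levels were 0.0385, 0.0296 and 0.0767 CPM, and that of PPP1R3C was 0.229 CPM, under or near the floor of 3 counts. Log2 values of so few counts spread widely between libraries, so these distances cannot be set against those of the abundant genes. The 6 libraries share their 2 conditions, so a gene with a change of like size lies close by this measure.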

How the data were processed

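RNA was extracted from SCC25 cells and sequenced as a SMARTER mRNA-Seq library per sample. The authors deposited counts, the whole number of reads on each of 21776 genes, and FPKM of the same genes. The aligner, counter, annotation and use of strand are not given in the sources used here. The submitters' processing notes name mouse builds (GRCm38 and mm10), although the symbols and Entrez numbers are human. The count columns are named hnscc and the FPKM columns SCC25, with 3 columns per condition in each table. The FPKM of each glycogen gene divided its counts by one length.

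The main test, in R 4.3.3, was that of edgeR 4.0.16 on the counts (glmQLFit and glmQLFTest, condition as the only term, TMM, filterByExpr, Benjamini-Hochberg adjustment at 0.05). The common biological coefficient of variation was 0.0685. The FPKM were tested with limma 3.58.1 as log2(FPKM + 1), where the mean FPKM of a gene reached 1. The edgeR, limma and DESeq2 tests, without a replicate block, were tried on simulated data first. Ratios were tested by two-sided exact permutation. Replicates differed by more than sampling noise (chi-square per gene 5.107 to 11.5). Exon overlaps came from GENCODE v29 (GRCh38) and promoters from RefSeq (GRCh38.p14), whose build may differ from that of the files.

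The alternatives tried were the Wald test of DESeq2 1.42.0, its size factors within edgeR, low-count genes kept in, a minimum of 10 counts per library, a replicate block, omission of single libraries, a minimum size of 1 for the log2-fold change, for FPKM a pseudocount of 0.1 and no filter, and for ratios 0.5 added to each count. The genes and lists were chosen with earlier results of these data known. All 10 genes are named, and of the other genes those with an adjusted p under 0.05 and a log2-fold change of at least 1 in size, plus GYG1, GAA, GSK3B and PHKB; 1 further gene of this rule is not reported here by name. Further genes are named as members of a list with few genes, as hypoxia response genes, or as cell type markers, some chosen after their values were seen. GSK3A was named beside GSK3B after its values had been seen. For likeness, the 3 nearest tested genes were named for GYS1, GBE1, PYGL and PPP1R3C.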

Additional observations from a re-analysis of the deposited data

How the results depend on the processing

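None of the 98 log2-fold changes of the 9 tested glycogen genes under the alternatives had another sign than in the test reported, nor did any of the 109 of the other genes followed singly. With a log2-fold change of at least 1 in size as a further condition, 3 glycogen genes and 5 of the other genes were called. The call of PYGL was lost in 6 of 11 alternatives, that of PGM2 in 3 of 11 and that of GSK3B in 2 of 11, and none of the other 16 genes followed singly lost its call. PPP1R3C and PHKG1 had no value with at least 10 counts in every library, which removed them. Over all genes, between 9967 and 11920 were called under the other settings and between 10669 and 11390 with a library left out. The median of shared genes moved by at most 0.08 on the log2 scale, with at least 10 counts in every library. The log2-fold change of PYGL was 0.13 in the test reported and 0.20 under that setting. Same-numbered libraries showed no shared deviation (correlations of 0.0175, -0.069 and 0.00122), and unlike-numbered ones lay between -0.0691 and 0.0663. With 3 libraries in each condition these values cannot decide whether the libraries were paired. With the replicate block 10875 genes were called in place of 11090, and PYGL had a log2-fold change of 0.13 at an adjusted p of 0.0742 (edgeR). In groups of 3 no library was tested as an outlier. Counts of 14, 7 and 2 limit the precision of the PPP1R3C change under normoxia.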
